A study of Mus musculus with 5 samples.

Results

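The 10 genes described here belong to the insulin, growth hormone and insulin-like growth factor (IGF) axis of the liver. They were taken by symbol from the 32285 genes of the expression matrix, as a list chosen with earlier results of these data known. The list holds 1 secreted ligand (Igf1), 3 IGF binding proteins (Igfbp1, Igfbp2 and Igfbp4), the acid-labile subunit (Igfals), 2 receptors (Ghr and Insr), 2 insulin receptor substrates (Irs1 and Irs2) and 1 transcription factor (Foxo1). Their transcripts were counted in total hepatocytes of C57BL/6J mice, all male, WT and on normal chow (lab diet #5053). Over 3 days every mouse had been trained to fast for 16 h at night and to feed for 8 h by day, and on the last day all drank water with 20% sucrose while they fed. The fed group (0 h) was taken after 4 h of feeding, and the other groups had been without food and sucrose water for 4, 8, 16 or 24 h. Each group was 1 droplet-based single-cell library. The sources used here do not say how many animals went into it. The clock hours of the 5 groups were 13, 17, 21, 5 and 13 in time order, so fasting time and hour of day cannot be told apart except between 24 h and 0 h.

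Growth hormone binds its receptor, encoded by Ghr, on hepatocytes and drives Igf1 through the kinase JAK2 and the transcription factor STAT5. The liver is the main source of circulating IGF-1, which travels bound to IGF binding proteins and, in the large serum complex, to the acid-labile subunit. Insulin acts through its receptor (Insr), the adaptor proteins IRS1 and IRS2, and the kinases PI3K and AKT, which keep the transcription factor FOXO1 out of the nucleus. When insulin is low, FOXO1 enters the nucleus and binds insulin response elements in the promoters of genes such as Igfbp1 and Irs2.

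The 250 bases upstream of the annotated start were available for 9 of the 10 genes, in 13 windows, from RefSeq (build GRCm38.p6). They were searched on both strands for CAAAACA, the core of the insulin response element, for GTAAACA, a forkhead core, and for TTCNNNGAA, the core bound by STAT factors. The following 4 windows are shown because 3 of them belong to the genes with a CAAAACA match and the fourth carries both other motifs. Each is written 5′ to 3′ on the gene's strand with the matched letters in capitals, and TGTTTTG and TGTTTAC are CAAAACA and GTAAACA read on the opposite strand.
Igfbp1 (chr11:7197537-7197786, plus strand): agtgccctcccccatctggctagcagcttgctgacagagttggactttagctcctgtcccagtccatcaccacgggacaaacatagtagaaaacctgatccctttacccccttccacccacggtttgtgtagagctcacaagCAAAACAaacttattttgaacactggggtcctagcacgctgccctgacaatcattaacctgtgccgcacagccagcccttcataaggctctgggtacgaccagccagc
Irs2 (chr8:11008930-11009179, minus strand): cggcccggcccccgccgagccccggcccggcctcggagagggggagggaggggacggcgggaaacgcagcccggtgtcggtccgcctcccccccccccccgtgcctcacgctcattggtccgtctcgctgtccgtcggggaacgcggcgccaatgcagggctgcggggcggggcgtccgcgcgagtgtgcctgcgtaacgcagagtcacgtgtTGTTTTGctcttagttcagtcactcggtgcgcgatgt
Irs1 (chr1:82291440-82291689, minus strand): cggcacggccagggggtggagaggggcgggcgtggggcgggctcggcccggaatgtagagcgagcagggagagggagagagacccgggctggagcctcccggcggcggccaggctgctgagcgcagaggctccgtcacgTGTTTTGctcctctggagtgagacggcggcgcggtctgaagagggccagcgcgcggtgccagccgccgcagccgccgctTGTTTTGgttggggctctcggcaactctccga
Igfals (chr17:24877981-24878230, plus strand): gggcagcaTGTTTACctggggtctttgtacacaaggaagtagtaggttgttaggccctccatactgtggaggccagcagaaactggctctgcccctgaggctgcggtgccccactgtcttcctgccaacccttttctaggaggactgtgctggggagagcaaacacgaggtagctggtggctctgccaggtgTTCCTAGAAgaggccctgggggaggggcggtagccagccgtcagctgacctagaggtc
Counted back from the start, the Igfbp1 match lay at -108 to -102 on the gene's strand. The Irs2 match lay at -37 to -31, and the Irs1 matches at -111 to -105 and -32 to -26, all on the opposite strand. The Igfals window held TTCNNNGAA at -58 to -50 and the opposite-strand GTAAACA at -242 to -236, and a second Igfals window held TTCNNNGAA at -236 to -228. Of all 32851 windows of this length in the table, 5.56% held CAAAACA, 3.17% held GTAAACA and 7.02% held TTCNNNGAA. A match describes the letters only.

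Hepatocyte barcodes were those with at least 1000 unique molecular identifiers (UMIs), at least 500 genes and 2 to 30% mitochondrial UMIs. They numbered 7826, 4567, 2716, 9125 and 4576 at 0, 4, 8, 16 and 24 h, with a median of 4391 to 15005 UMIs per barcode. Levels are given as CPM, the UMIs of a gene per 1000000 of the 33521626 to 45532684 non-mitochondrial UMIs summed over each library. The 7 hepatocyte markers, among them Alb and Apob, summed to 81706 to 111596 CPM. The libraries stood apart in other ways. The 12 immediate-early and stress genes summed to 729 CPM at 16 h and to 274 to 577 CPM in the other libraries, and their part in the 16 h values was not tested. Barcodes with less than 2% mitochondrial UMIs made up 53.5% of those past the UMI and gene limits at 4 h and 54.0% at 24 h, against 2.50% at 16 h. The 8 sinusoidal endothelial markers summed to 83.5 CPM in the fed library and to 11.1 to 30.6 CPM in the fasted ones. Barcode sequences found in another library's hepatocytes numbered 18 to 42 per library.

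With 1 library per group there was no replicate, so no test across animals was possible. The 95% intervals are exact and cover counting error only, and a difference describes 2 libraries. The 4 comparisons with the fed library share that library. A gene was called higher or lower when it differed at least 2-fold and reached 10 CPM in either library. All 10 genes passed that minimum in every comparison.

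Igfbp1 was called higher than fed at all 4 times, and Irs2 and Foxo1 at 3 times each. At 4 h, 3 of the 10 were called higher (Igfbp1, Irs2 and Foxo1), beside 3.67% of all 7299 genes tested. At 8 h, 4 of the 10 were called higher, with Igfbp2 added, beside 5.68% of all genes. At 16 h, 2 of the 10 were called higher (Igfbp1 and Irs2), beside 2.87%, and at 24 h, 2 of the 10 (Igfbp1 and Foxo1), beside 4.73%. None of the 10 was called lower at any time, while 6.04%, 11.2%, 3.6% and 8.77% of all genes were at 4, 8, 16 and 24 h. The median log2 ratio of the 10 genes was -0.014, 0.022, 0.31 and 0.23 in the same order, beside -0.091, -0.078, -0.017 and -0.100 for all genes tested.

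**Figure D1:**
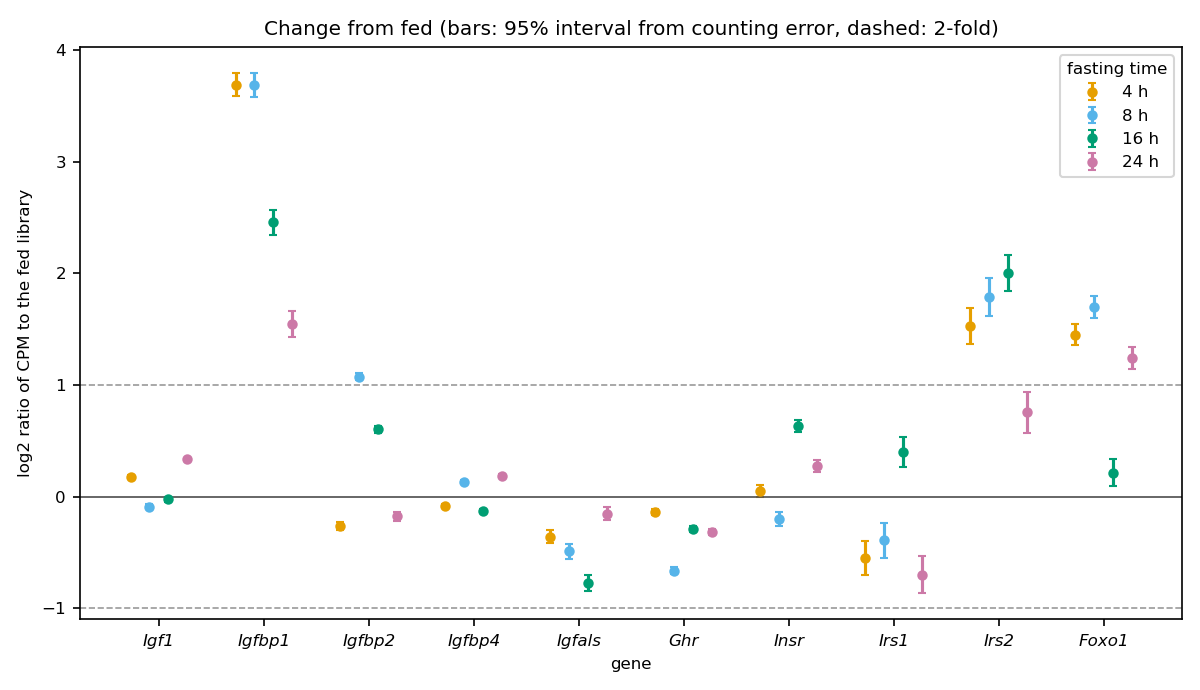
Log2 ratio of CPM to the fed library (y axis) for the 10 genes (x axis), with points coloured by fasting time, bars for the 95% interval from counting error and dashed lines at 2-fold. Igfbp1 lies above the upper dashed line at all 4 times, from 3.69 at 4 h to 1.55 at 24 h, and no gene reaches the lower dashed line.

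Igf1 (ENSMUSG00000020053, chromosome 10, 87858265 to 87937042, plus strand, GENCODE M21 on GRCm38), which encodes the secreted growth factor, varied 1.34-fold between its lowest and highest library. In the fed library it had 1288 CPM (1276 to 1299), and it had 1456, 1210.2, 1264 and 1621 CPM at 4, 8, 16 and 24 h. The 24 h library was 1.26-fold above fed (log2 ratio 0.33, interval 0.31 to 0.35). A direction is named here only for log2 ratios of at least 0.32, above or below 0. The other ratios of Igf1 to fed were smaller than that, and the intervals of 16 h and 0 h overlapped. Without the lower limit on mitochondrial UMIs the 24 h ratio was 0.028.

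Igfbp1 (ENSMUSG00000020429, chromosome 11, 7197782 to 7202546, plus strand) encodes a binding protein that limits free IGF-1 and is known as an insulin-repressed liver transcript. The fed library had 21.4 CPM (19.9 to 22.9). The 4 h library had 276 CPM (271 to 281), the 8 h library 276 CPM (270.2 to 281), the 16 h library 117 CPM (114 to 121) and the 24 h library 62.6 CPM (60.1 to 65.1). Every fasted library was thus above fed, the 4 h and 8 h libraries were highest and overlapped, and the later libraries lay between. In time order the log2 ratios to fed were 3.69 (3.59 to 3.80), 3.69 (3.59 to 3.80), 2.46 (2.35 to 2.57) and 1.55 (1.43 to 1.67), or 12.9-, 12.9-, 5.49- and 2.93-fold. At the matched clock hour of 13, the 24 h library was therefore still above the fed one.

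Igfbp2 (ENSMUSG00000039323, chromosome 1, 72824503 to 72852474, plus strand), another circulating binding protein made by hepatocytes, peaked at 8 h. The fed library had 314 CPM (309 to 320.1) and the 4 h library 262 CPM (257 to 267). The 8 h library had 662 CPM (654 to 671), the 16 h library 477 CPM (469.9 to 485) and the 24 h library 278 CPM (273 to 283). Only the 8 h and 16 h libraries were above fed, 2.11-fold (log2 ratio 1.08, 1.04 to 1.11) and 1.52-fold (0.60, 0.57 to 0.64). The 4 h and 24 h ratios were -0.26 and -0.18, and the intervals of no 2 libraries overlapped.

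Igfbp4 (ENSMUSG00000017493, chromosome 11, 99041244 to 99054392, plus strand), a binding protein of many tissues, varied least of the 10, between 1570.0 CPM at 16 h and 1961 CPM at 24 h. Its log2 ratios to fed were -0.082, 0.13, -0.13 and 0.19. Igfals (ENSMUSG00000046070, chromosome 17, 24865997 to 24882010, plus strand) encodes the acid-labile subunit, a growth hormone target made by hepatocytes. The fed library had 124 CPM (120.5 to 128), followed by 96.5, 88.2, 72.3 and 112 CPM at 4, 8, 16 and 24 h. At 16 h Igfals was thus 1.72-fold below fed (log2 ratio -0.78, -0.85 to -0.71). The 24 h ratio was -0.15 (-0.21 to -0.092).

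**Figure D2:**
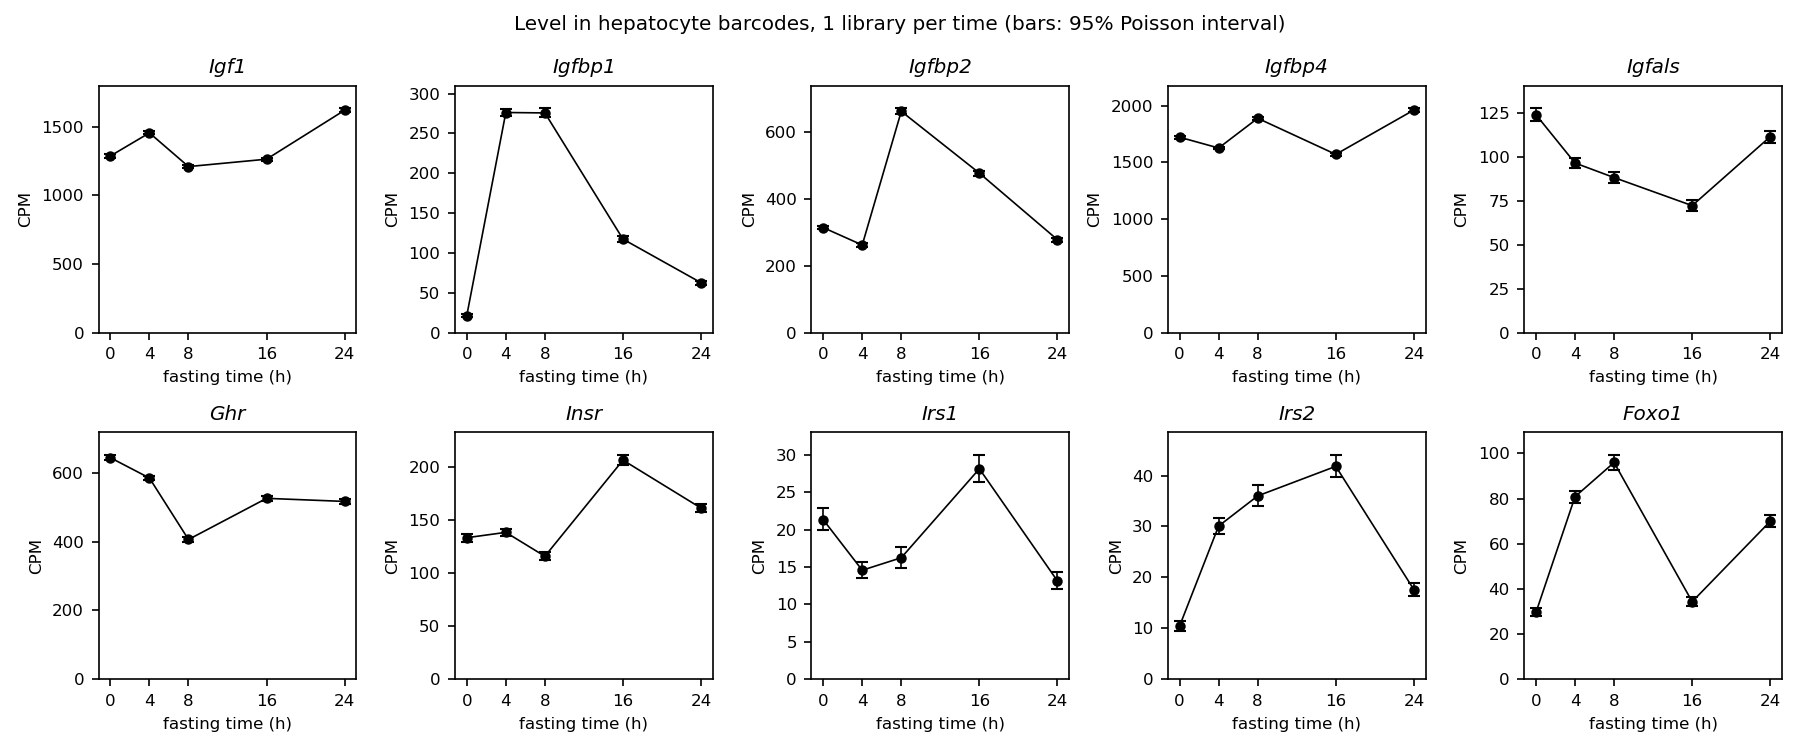
CPM over hepatocyte barcodes (y axis, from 0) against fasting time in hours (x axis) for each of the 10 genes, 1 library per point, with bars for the 95% Poisson interval. Igfbp1 goes from 21.4 CPM in the fed library to 276 CPM at 4 h and 8 h. Irs2 has 41.8 CPM at 16 h, and Foxo1 has 96.0 CPM at 8 h.

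Of the receptors, Ghr (ENSMUSG00000055737, chromosome 15, 3317760 to 3583492, minus strand), which makes hepatocytes responsive to growth hormone, had 644 CPM in the fed library (636 to 652), and 585, 406, 526 and 517 CPM at 4, 8, 16 and 24 h. The 8 h library was lowest, 1.59-fold below fed (log2 ratio -0.67, -0.70 to -0.63), and the intervals of 16 h and 24 h overlapped. The 4 h ratio was -0.14, and 0.074 under TMM scaling. Insr (ENSMUSG00000005534, chromosome 8, 3122061 to 3279617, minus strand), the insulin receptor, had 133 CPM in the fed library (129.8 to 137), and 139, 116, 207 and 161 CPM in the fasted ones. Insr at 16 h was 1.55-fold above fed (log2 ratio 0.63, 0.58 to 0.68), and the other ratios were 0.054, -0.20 and 0.27 at 4, 8 and 24 h.

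The adaptors differed in their course. Irs2 (ENSMUSG00000038894, chromosome 8, 10984681 to 11008458, minus strand), the adaptor whose transcript is known to be repressed by insulin in liver, had 10.4 CPM in the fed library (9.42 to 11.51). The 4 h library had 30.1 CPM (28.5 to 31.7), the 8 h library 36.0 CPM (34.0 to 38.1), the 16 h library 41.8 CPM (39.7 to 44.1) and the 24 h library 17.6 CPM (16.3 to 19.0). All 4 fasted libraries were thus above fed, and the 24 h library was the lowest of them. No 2 intervals overlapped, but the log2 ratios of 8 h to 4 h (0.26) and 16 h to 8 h (0.22) were smaller than 0.32, so 4, 8 and 16 h are given no order. The log2 ratios to fed were 1.53 (1.37 to 1.69), 1.79 (1.62 to 1.96), 2.004 (1.84 to 2.17) and 0.75 (0.57 to 0.94), so that the 24 h library was 1.69-fold above fed and not called.

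Irs1 (ENSMUSG00000055980, chromosome 1, 82233101 to 82291416, minus strand), the adaptor better known from muscle and fat, had 21.3 CPM in the fed library (19.9 to 22.9), and 14.6, 16.2, 28.1 and 13.1 CPM at 4, 8, 16 and 24 h. It was above fed at 16 h (log2 ratio 0.40, 0.26 to 0.54). In the 4, 8 and 24 h libraries it was below fed, with ratios of -0.55 (-0.70 to -0.40), -0.39 (-0.55 to -0.24) and -0.70 (-0.87 to -0.54). The 8 h ratio was -0.15 under TMM scaling, and the 16 h ratio was 0.28 with at most 15% mitochondrial UMIs. Irs1 and Irs2 were therefore on opposite sides of fed at 4, 8 and 24 h.

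Foxo1 (ENSMUSG00000044167, chromosome 3, 52268336 to 52353221, plus strand), the transcription factor restrained by insulin, had 29.6 CPM in the fed library (27.8 to 31.3). The 4 h library had 80.8 CPM (78.3 to 83.5), the 8 h library 96.0 CPM (92.7 to 99.4), the 16 h library 34.3 CPM (32.4 to 36.3) and the 24 h library 70.0 CPM (67.3 to 72.7). The 16 h library was thus close to fed (log2 ratio 0.21, 0.095 to 0.34), between the higher 8 h (1.70, 1.60 to 1.80) and 24 h (1.24, 1.14 to 1.34) libraries.

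Consecutive libraries were compared as well. At 8 h against 4 h, 1 of the 10 (Igfbp2, log2 ratio 1.34) was called higher, beside 1.12% of all genes, and none lower, beside 2.06%. At 16 h against 8 h, 2 of the 10 were called lower, Igfbp1 (-1.23, -1.29 to -1.18) and Foxo1 (-1.48, -1.58 to -1.39), beside 7.25%, and none higher, beside 10.5%. At 24 h against 16 h, Irs1 (-1.10, -1.26 to -0.94) and Irs2 (-1.25, -1.38 to -1.12) were called lower, beside 5.78%, and Foxo1 (1.03, 0.93 to 1.13) higher, beside 5.19%. Over 12 other ways of scaling or choosing barcodes, this Foxo1 ratio stayed past 2-fold in 8, with a lowest value of 0.77 with no lower limit on mitochondrial UMIs. The Irs1 ratio stayed past 2-fold in 10, with a smallest size of -0.98 under TMM scaling. The summed clock genes, 14 in all, had 633, 502, 367, 694 and 631 CPM at 0, 4, 8, 16 and 24 h, and the part of the clock hour in these courses was not tested.

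Depth per barcode differed between the libraries, so shares of barcodes with a UMI were compared after each barcode was thinned to 1000 non-mitochondrial UMIs. Igfbp1 was then found in 1.86% of fed hepatocytes (exact Clopper-Pearson interval 1.58 to 2.19%). The fasted libraries followed with 20.3% (19.1 to 21.4%), 24.8% (23.2 to 26.5%), 10.4% (9.81 to 11.1%) and 5.36% (4.73 to 6.05%). Before thinning the shares were 8.18, 67.0, 80.8, 30.04 and 30.4%, with median depths of 4735, 9425, 13650, 3789 and 7216.5 non-mitochondrial UMIs. In 90 fed barcodes rich in endothelial markers, Igfbp1 had 0 of 165610 UMIs. That allows up to 22.3 CPM, which is above the fed hepatocyte level. The fasted libraries held 5 to 35 such barcodes, also with 0 UMIs, which allow up to 88.6 to 187 CPM. The limit at 24 h, 114 CPM, is also above the hepatocyte level of that library. At this depth, hepatocytes of the fed and 24 h libraries are not told apart by Igfbp1 from these barcodes of their own library. All 154 such barcodes together had 0 of 285197 UMIs, which allows up to 12.9 CPM, but they mix the libraries.

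Thinned shares of Irs2 were 0.990, 2.02, 3.65, 4.31 and 1.64%, and those of Foxo1 were 2.88, 6.69, 9.16, 3.22 and 6.30% in time order. In the fed library the endothelial-marker-rich barcodes, 90 in number with a median depth of 1742.5 non-mitochondrial UMIs, held Irs2 in 2.22% (0.270 to 7.80%) and Foxo1 in 12.2% (6.26 to 20.8%). The hepatocyte shares of Foxo1 in all 5 libraries, and those of Irs2 at 0, 4 and 24 h, lay below those shares. The Irs2 interval rests on 2 barcodes and held the hepatocyte shares of all 5 libraries. Foxo1 stood at 103 CPM (59.8 to 164) in the 90 fed endothelial-marker-rich barcodes, against 29.6 CPM in the fed hepatocytes. Its share there is therefore not used as a background, and no course is read from the thinned shares of either gene. Among all 154 such barcodes, Igfbp4 stood at 1112 CPM (993 to 1241), Insr at 245 CPM (191 to 310.1) and Foxo1 at 94.7 CPM (62.4 to 138), while Igfbp2 and Igfals stood at 24.5 CPM each (9.87 to 50.6). Without barcodes that held 0.5% or more of their UMIs in non-hepatocyte markers, the ratios to fed described above kept their direction.

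To place the genes along the liver lobule, hepatocytes of each library were ranked by the ratio of Cyp2f2, a portal gene, to Cyp2e1, a central gene, and split into 5 equal bins. Bin 1 is the most portal and bin 5 the most central. The bins are parts of a range within a library and not positions measured in tissue. At 24 h bin 5 was shallow, with a median of 2854 UMIs, 8.88% mitochondrial UMIs and 560 CPM of summed non-hepatocyte markers, against 95.4 to 184 CPM in the other bins. Its Cyp2e1 stood at 3940 CPM, against 6436 to 10498 CPM in bin 5 of the other libraries. The 14 central landmark genes summed to 1230 CPM in all 24 h hepatocytes, against 2942 CPM in the fed ones. Bin 5 of the fed library had a median of 2914 UMIs and 242 CPM of summed endothelial markers. The part of these differences in the profiles was not tested.

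Igf1 was higher at the portal end in all 5 libraries. Its CPM went from 1447 in bin 1 to 877 in bin 5 in the fed library, and from 1816 to 1069.9 at 24 h. The log2 ratio of bin 1 to bin 5 was 0.72 in the fed library (0.67 to 0.77), and 0.74, 0.60, 0.51 and 0.76 in the fasted ones. In the same direction, Igfals had ratios of 0.29, 0.47, 0.20, 0.35 and 0.58, of which those at 4, 16 and 24 h passed 0.32. Both kept the portal side in every library under each of the 5 other ways of drawing the axis or choosing the barcodes, but the size depended on the choice. With no lower limit on mitochondrial UMIs the ratio of Igf1 was 1.003 at 0 h and 1.498 at 24 h, and that of Igfals was 1.253 at 24 h, all past 2-fold. Ranked by landmark genes (12 portal, 14 central), Igf1 had 0.33 and Igfals 0.18 at 24 h.

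Igfbp1 lay on the other side, and only at 4 h and 8 h. In the fed library its bins lay between 20.4 and 23.1 CPM. At 4 h it went from 254 CPM in bin 1 (245 to 263) to 357 CPM in bin 5 (343 to 372). At 8 h bins 1 to 4 lay between 219 and 258 CPM and bin 5 stood at 501 CPM (482 to 519.99). That central excess, 2.29-fold with a log2 portal-to-central ratio of -1.19, was the only one of the 10 genes at 2-fold or more between the end bins, beside 1.91% of all genes with central higher at 8 h. At 0, 4, 16 and 24 h the share of all genes with central higher was 2.96, 2.23, 2.58 and 7.39%. The share with portal higher was 1.15, 1.97, 1.3, 1.65 and 2.14% over the 5 libraries, and held none of the 10 genes. With 3 bins the 8 h ratio was -0.84, and with no lower limit on mitochondrial UMIs the 4 h ratio went from -0.49 to -0.12. At 16 h and 24 h the ratios were 0.018 and 0.057, and with no lower limit on mitochondrial UMIs 0.032 and 0.97.

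Within the end bins, the change of Igfbp1 from fed was 3.42 (log2) in bin 1 and 4.46 in bin 5 at 8 h, and 3.63 and 3.98 at 4 h. For Igfbp2 the 8 h change was 1.04 in bin 1 and 1.20 in bin 5. The difference between the ends was not tested across animals.

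**Figure D3:**
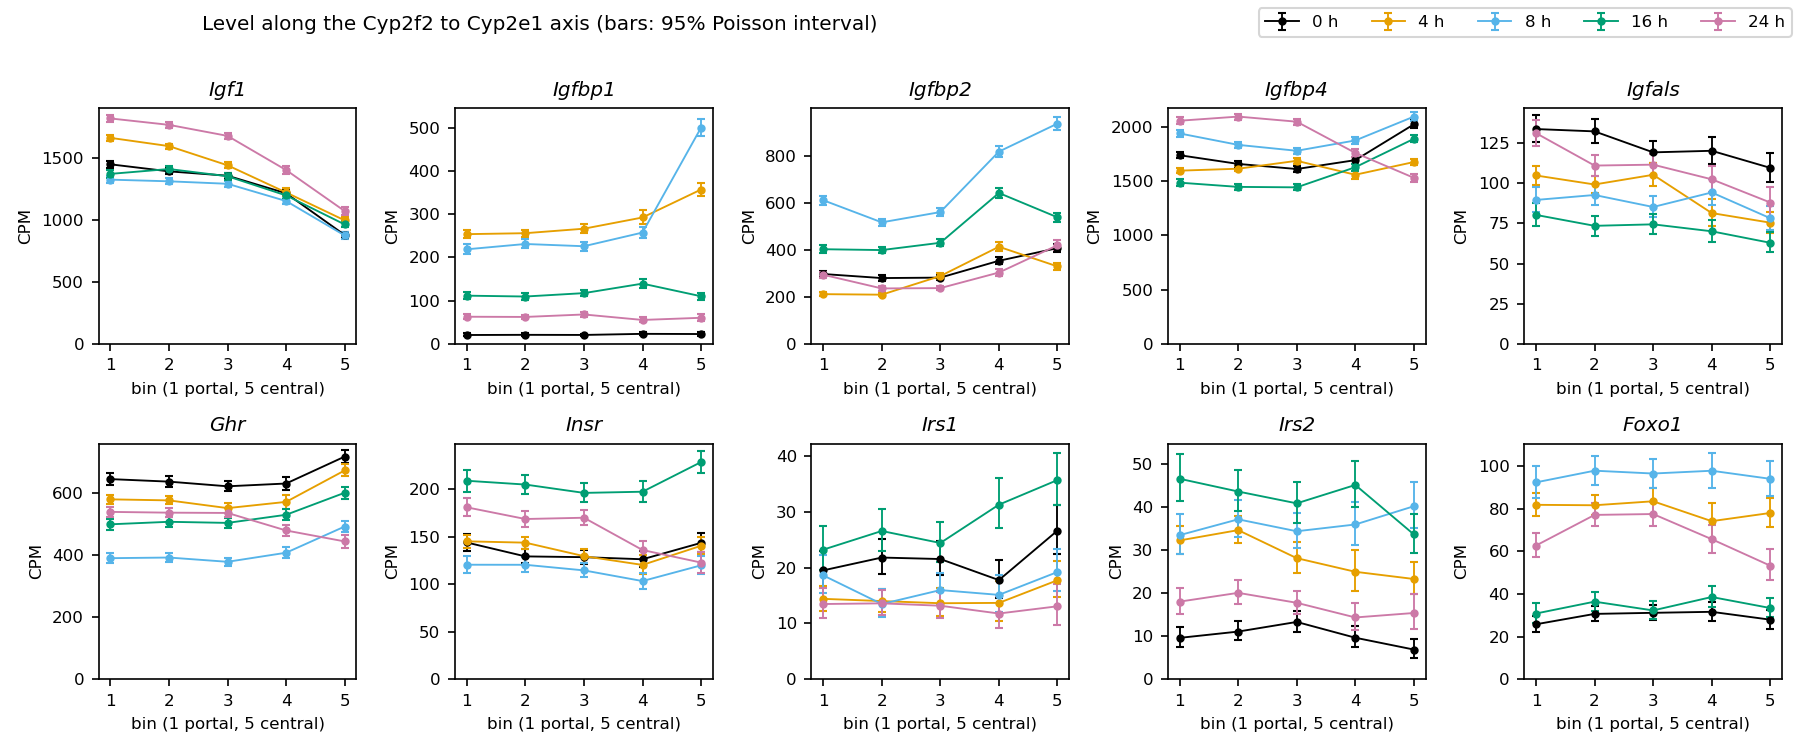
CPM (y axis, from 0) in the 5 bins from portal (1) to central (5) on the x axis for each of the 10 genes, with 1 coloured line per library and bars for the 95% Poisson interval. Igf1 is lowest in the central bin in all 5 libraries, and Igfbp1 reaches 501 CPM in the central bin at 8 h against 219 to 258 CPM in the other bins.

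Igfbp2 was highest in bin 4 or bin 5 of every library. Its lowest value lay in bin 2, whose interval overlapped that of bin 1 or bin 3 in all libraries but that of 8 h, and in bin 1 with the landmark ranking described above. At 8 h it stood at 610.2, 516, 559.8, 817 and 936 CPM from bin 1 to bin 5, and at 16 h at 402, 398, 429, 641 and 538 CPM. Its log2 portal-to-central ratios were -0.46, -0.64, -0.62, -0.42 and -0.51 in time order. With the landmark ranking the ratios were -0.92, -1.21, -1.24, -0.91 and -1.37, so that 3 of them passed 2-fold. With no lower limit on mitochondrial UMIs they were -0.083, -0.32, -0.31, -0.38 and 0.29, on the portal side at 24 h but smaller than 0.32.

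The log2 portal-to-central ratios of Ghr were -0.15, -0.22, -0.34, -0.27 and 0.28 (24 h interval 0.20 to 0.36) in time order, and only that at 8 h passed 0.32 in size, on the central side. With 3 bins the 8 h ratio was -0.25, and the 24 h ratio was 0.60 with no lower limit on mitochondrial UMIs and 0.038 with the landmark ranking. Igfbp4 was central at 16 h (-0.35) and portal at 24 h (0.43), and Insr was portal at 24 h (0.56). With the landmark ranking the 24 h ratios of Igfbp4 and Insr were 0.080 and 0.044, and with no lower limit on mitochondrial UMIs 1.075 and 1.603. Irs1 was central at 16 h (-0.62, -0.93 to -0.31). Its ratio at 0 h was -0.45 (-0.79 to -0.11), with -0.082 for 3 bins and 0.067 with no lower limit on mitochondrial UMIs. Irs2 was portal at 4 h (0.47, 0.20 to 0.75) and 16 h (0.47, 0.21 to 0.73). With at least 3000 UMIs its 4 h ratio was 0.26, and with 3 bins its 16 h ratio was 0.19. At 0 h the ratio of Irs2 was 0.48 with an interval of -0.11 to 1.09, which includes 0. Foxo1 had ratios between -0.12 and 0.24, and with no lower limit on mitochondrial UMIs its 24 h ratio was 0.83.

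The 16 h library differed from the others in its acute-phase genes (Saa1, Saa2, Lcn2 and 7 more), which summed to 15301 CPM there and to 2603 to 6140 CPM elsewhere. Because the sum varied between its cells, hepatocytes of each library were split into 3 equal parts by it, of which the lowest is called acute-phase-low and the highest acute-phase-high. The parts are cuts of a range, and 1765 of the 16 h barcodes (19.3%) lay within 10% of a limit. At 16 h, 3042 acute-phase-high barcodes (27740.1 CPM of acute-phase genes, median 4544 UMIs) were set against 3041 acute-phase-low ones (2905 CPM, median 4442 UMIs). The acute-phase-high cells lay nearer the central end there, with a mean axis bin of 3.35 against 2.77.

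Irs2 stood at 25.1 CPM in the acute-phase-high and at 65.3 CPM in the acute-phase-low cells, a log2 ratio of -1.38 (-1.58 to -1.19). Igfbp1 stood at 89.8 and 160.04 CPM (-0.83, -0.94 to -0.72), and Irs1 at 24.6 and 35.7 CPM (-0.53, -0.76 to -0.31). Igfals went the other way, with 82.2 and 61.2 CPM (0.43, 0.28 to 0.57). Foxo1, Igf1, Igfbp4, Igfbp2, Ghr and Insr had ratios between -0.17 and 0.31. Irs2 was lower in the acute-phase-high cells in each of the 5 axis bins, with log2 ratios from -1.88 in bin 1 to -0.83 in bin 5, and so was Igfbp1, from -1.05 in bin 2 to -0.51 in bin 1. Socs3, which encodes an inhibitor of cytokine and insulin receptor signalling, stood at 18.2 CPM in the acute-phase-high and at 5.62 CPM in the acute-phase-low cells. It stood at 2.37 and 2.03 CPM in these parts at 24 h, and at 30.8 and 30.7 CPM at 0 h.

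**Figure D4:**
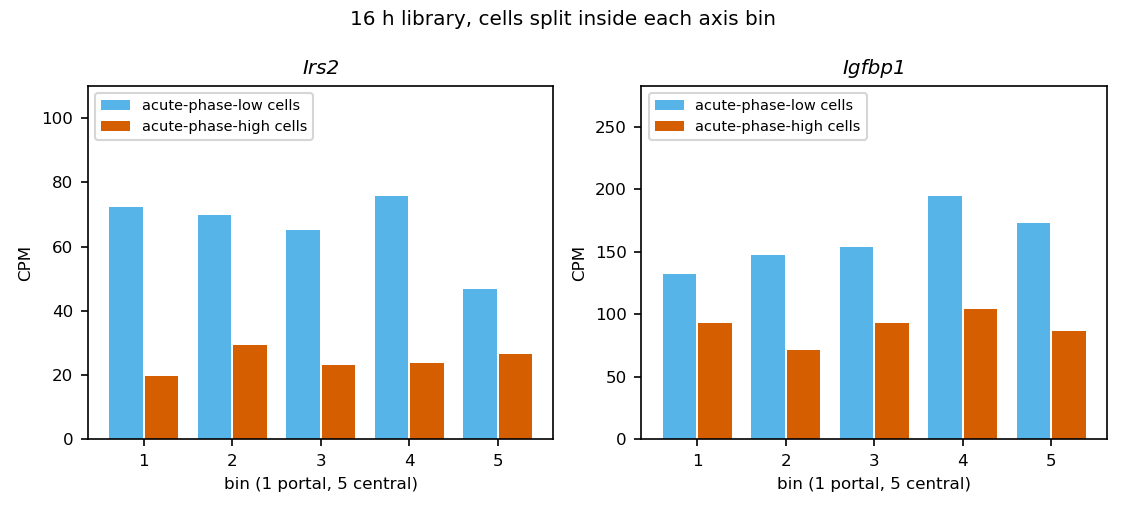
CPM (y axis, from 0) of Irs2 and Igfbp1 at 16 h in acute-phase-low and acute-phase-high cells, split inside each axis bin (x axis). The bar of the acute-phase-low cells is taller in all 5 bins for both genes, as for Irs2 in bin 1 with 72.4 against 19.7 CPM.

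At 24 h, where the acute-phase sum was 5893 CPM in the acute-phase-high and 1789.9 CPM in the acute-phase-low cells, Irs2 was again lower in the former (10.7 and 20.7 CPM, log2 ratio -0.95). Foxo1 was lower as well (37.9 and 80.04 CPM, -1.08), Igfals was higher (168 and 82.8 CPM, 1.02) and so was Igfbp2 (416 and 246 CPM, 0.76). Irs1 (-0.78) and Igfbp4 (-0.39) were lower. Igfbp1 had a ratio of -0.052. These cells differed in median depth at 24 h, 5852 against 9038 UMIs, and with at least 3000 UMIs the ratios of Irs2 and Foxo1 were -0.91 and -1.07.

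The other libraries held some of the same differences. At 0, 4 and 8 h the acute-phase-high cells lay nearer the portal end. Their mean bins were 2.75, 2.85 and 2.77, against 3.42, 3.55 and 3.41 for the acute-phase-low cells. The 4 h parts differed in median depth, with 6366 UMIs in the acute-phase-high and 11686 UMIs in the acute-phase-low cells. At 8 h, 42.4% of barcodes lay within 10% of a limit. Igfals was higher in the acute-phase-high cells at 0 h (0.48) and 4 h (0.52), and its ratio was 0.15 at 8 h. Foxo1 was lower at 0 h (-0.45), and Irs1 had ratios of -0.37 at 0 h and -0.42 at 8 h, the latter -0.26 when cells were split inside each axis bin. Igfbp1 was lower at 4 h (-0.43, -0.49 to -0.36, and -0.36 inside bins). At 8 h its ratio of -0.43 went to -0.070 inside bins, and that of Igfbp2 from -0.40 to -0.17. Irs2 had ratios of -0.14, -0.047 and -0.26 at 0, 4 and 8 h, and of -0.37, -0.20 and -0.15 inside bins. At 4 h its values in single bins ran from -0.12 in bin 2 to -1.09 in bin 4, all below 0. Whether the 16 h and 24 h libraries differ from these was not tested.

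Other genes of these pathways were taken as whole lists. Among 13 FoxO family genes and transcription targets of insulin and FOXO1, 12, 11, 11 and 11 reached 10 CPM in the 4 comparisons with fed. Of these, 3, 4, 2 and 2 were called higher and 2, 2, 1 and 1 lower at 4, 8, 16 and 24 h. Of all genes tested, 3.67, 5.68, 2.87 and 4.73% were called higher and 6.04, 11.2, 3.6 and 8.77% lower in the same order. The list's median log2 ratio was 0.40, 0.56, 0.38 and 0.53, beside -0.091, -0.078, -0.017 and -0.100 for all genes. Called higher at all 4 times were Pck1, the cytosolic phosphoenolpyruvate carboxykinase of gluconeogenesis, and Ccng2, a cyclin gene known as a FoxO target. Ccng2 stood at 6.93 CPM in the fed library and at 37.6, 29.3, 20.3 and 16.2 CPM after it. Klf15 (104 to 219.6 CPM) and Foxo4 (11.7 to 24.3 CPM) were called higher at 8 h, and Ppargc1a (24.0 to 56.05 CPM) at 4 h.

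Srebf1, the insulin-induced transcription factor of lipid synthesis, stood at 438 CPM in the fed library and then at 88.4, 22.9, 64.0 and 70.8 CPM. It was called lower at all 4 times, and its lowest library was 8 h. Also of this list, Txnip was called lower at 4 h (143 to 44.0 CPM) and Foxa2, a liver forkhead factor, at 8 h (106 to 32.3 CPM).

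**Figure D5:**
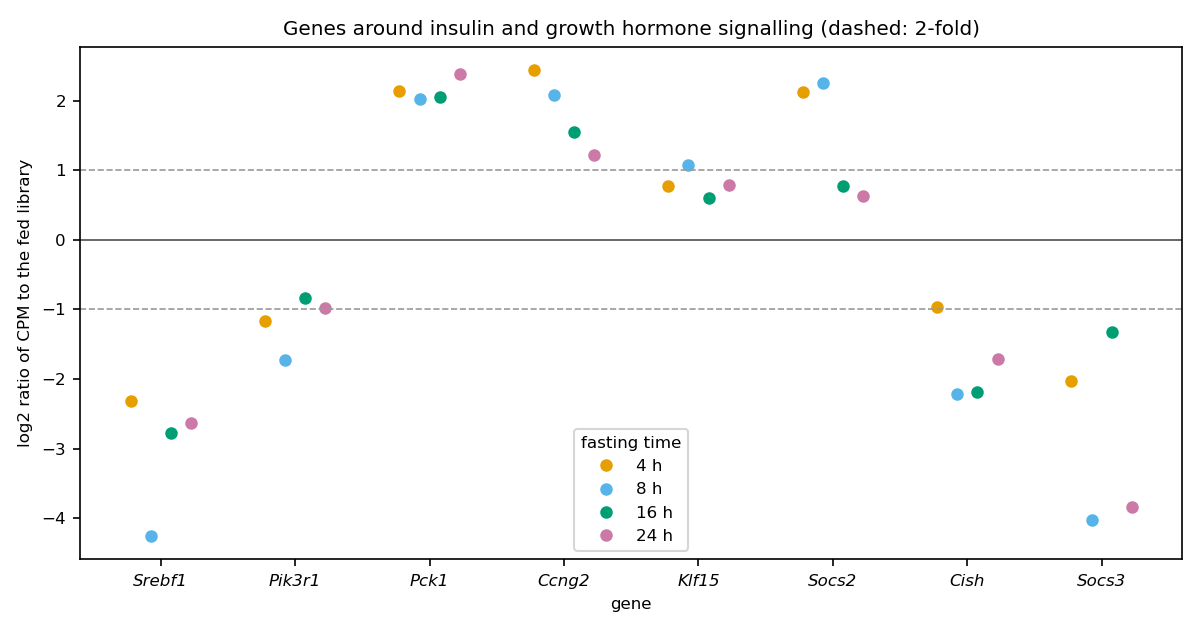
Log2 ratio of CPM to the fed library (y axis) for 8 genes of insulin and growth hormone signalling (x axis), with points coloured by fasting time and dashed lines at 2-fold. Srebf1 lies below the lower dashed line and Pck1 and Ccng2 above the upper one at all 4 times, and Socs2 lies above it at 4 h and 8 h.

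Among 26 insulin signalling genes, 24, 24, 25 and 24 were tested. Called higher were 1 at 4 h (Tsc1, an inhibitor of mTORC1, 11.01 to 27.0 CPM) and 1 at 16 h (Trib3, a pseudokinase that binds AKT, 1.46 to 10.4 CPM). Called lower was Pik3r1, which encodes a regulatory subunit of PI3K, at 4 h and 8 h. It stood at 223, 99.4, 67.7, 125 and 113 CPM in time order. None of the list was called at 24 h, where 4.73% of all genes were called higher and 8.77% lower. The share of all genes called higher was 3.67% at 4 h and 2.87% at 16 h, and the share called lower was 6.04% at 4 h and 11.2% at 8 h. The list's median log2 ratio lay between -0.080 and 0.046 over the 4 times, and that of all genes between -0.100 and -0.017.

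Of 13 growth hormone signalling genes, 10 were tested at each time, and 1, 1, 0 and 0 were called higher and 2, 2, 2 and 3 lower, beside 3.67, 5.68, 2.87 and 4.73% higher and 6.04, 11.2, 3.6 and 8.77% lower of all genes. The list's median log2 ratio was -0.020, 0.21, 0.15 and 0.037. Socs2, a feedback inhibitor induced by growth hormone through STAT5, stood at 12.5, 54.3, 59.6, 21.4 and 19.2 CPM, 4.35- and 4.78-fold above fed at 4 h and 8 h. Cish, another STAT5-induced inhibitor, stood at 61.3, 31.5, 13.2, 13.5 and 18.7 CPM and was called lower at 8, 16 and 24 h. Socs2 and Cish were thus on opposite sides of fed. Socs3 was called lower at all 4 times (31.4 CPM in the fed library and 1.92 to 12.6 CPM after it). Bcl6, a repressor, was called lower at 4 h (log2 ratio -2.12) and 24 h (-2.06). At 8 h (0.46, 0.31 to 0.60) and 16 h (0.66, 0.53 to 0.80) it was above fed but not past 2-fold.

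Of 11 other IGF ligands, receptors and binding proteins, 3 were tested, and Igf2, Pappa, Pappa2 and Stc2 had 0 UMIs in every library. Igfbp7 was called lower at all 4 times and Igfbp5 at 8 h and 16 h, so that 1, 2, 2 and 1 of the 3 were lower beside the same 6.04, 11.2, 3.6 and 8.77% of all genes. Igfbp7 stood at 11.48 CPM in the fed library and at 0.900 to 4.50 CPM in the fasted ones. The endothelial marker sum was likewise highest in the fed library, and its part in these values was not tested.

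Over 25 points (5 libraries by 5 axis bins), genes of at least 50 CPM on average were compared with each gene. Those most like it by Pearson's r of log2(CPM + 1) were found, as a description. The points share libraries and depth. For Igf1 they were Selenop, which encodes a secreted selenium carrier (r = 0.93), Pigr (0.89) and Hsd11b1 (0.87). For Igfbp1 they were Pnrc1 (0.96), Lurap1l (0.96) and Retreg1 (0.95), and for Irs2 they were Camk1d (0.94), Marc1 (0.94) and the clock gene Clock (0.92). Camk1d stood at 30.4, 75.2, 105, 111 and 45.2 CPM in time order. Among the 10 genes themselves, r was 0.82 between Igfbp1 and Irs2, 0.74 between Igfbp1 and Foxo1 and -0.74 between Igfals and Irs2.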

How the data were processed

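The authors deposited raw UMI counts of 5 libraries in 1 matrix, made with Cell Ranger 6.0.1, as its header says (per the file headers), and not normalized. The genome build mm10 is named in the submitters' processing notes. Of the 32285 gene IDs, 32158 (99.6%) were found in GENCODE M21. Per the labels' protocols, each library used the Chromium 3' kit v3, so reads come from transcript ends. Igf1, Insr, Irs1, Irs2 and Foxo1 overlap a gene on the opposite strand that is also in the matrix, and how strand was treated is not given in the sources used here.

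Barcodes were mapped to libraries by the deposited barcode table, which gives no cell type, and no column of values was without a sample. Barcodes were chosen by the limits given above, with no doublet caller, so doublets remain. The 13 mitochondrial genes were left out of the CPM denominator. At 10 CPM a library holds 335 to 455 UMIs of a gene, and a barcode carries few. Intervals are exact Poisson for CPM, conditional binomial for ratios and Clopper-Pearson for shares. They cover counting error only. The axis score was log2((Cyp2f2 per 10000 + 1)/(Cyp2e1 per 10000 + 1)) with ties broken by barcode order. Thinning used seed 1. The fold calls were tested on simulated data.

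The 10 genes, the lists and the rules were chosen with earlier results of these data known. Genes outside the 10 are named when past 2-fold against fed at 1 or more times (up to 8 per list by size), or among the 3 most like Igf1, Igfbp1 or Irs2. The list of FoxO family genes and insulin targets was longer by 1 gene that is not reported here, and its counts and medians are over the remaining 13. Directions are given from a log2 ratio of 0.32. Alternatives covered scaling (edgeR 4.0.16 TMM in R 4.3.3, and median-of-ratios), the denominator, barcode limits, free RNA (10% of the profile of barcodes under 2% mitochondrial UMIs subtracted), omission of the 5% of barcodes with most UMIs, expression minimum, fold and axis. Sums and intervals were computed with scipy 1.17.1 and numpy 2.4.6 under python 3.11.15. Tables were handled in pandas 2.3.3 and drawn in matplotlib 3.10.9.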

Additional observations from a re-analysis of the deposited data

How the results depend on the processing

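A value is counted as turned only where it was at least 0.32 in size (log2) and took the opposite sign. All 23 ratios to fed of at least 0.32 in size (log2) kept their sign under each of 12 alternatives. Of these, 5 fell below 0.32 in some: Igfals at 4 h (to -0.15) and 8 h (-0.25) and Irs1 at 8 h (-0.13), Irs1 at 16 h (0.28) and Igf1 at 24 h (0.028). Over all 40 such ratios, 289 of 480 alternative values stayed within the counting interval, 191 moved and 0 turned by that rule. TMM scaling put the median of all genes at 0.12, 0.16, 0.044 and 0.077 at 4, 8, 16 and 24 h against fed (log2), against -0.091, -0.078, -0.017 and -0.100 in CPM. Ratios smaller than 0.32 in size are therefore given no direction, since several (Igf1 and Insr at 8 h, Ghr and Igfbp4 at 4 h, Igfals at 24 h) had the other sign under TMM. At 1.5-fold, 1 gene counted as lower at 8 h (Ghr), 1 at 16 h (Igfals) and 1 at 24 h (Irs1), with 4 higher at 16 h (Igfbp1, Igfbp2, Insr and Irs2) and 3 at 24 h (Igfbp1, Foxo1 and Irs2). With a minimum of 50 CPM, Irs2 was below it in every library, and 2, 3, 1 and 2 counted as higher at 4, 8, 16 and 24 h. The share of all genes was not counted at 1.5-fold or at 50 CPM, so these counts are not set against it. With no lower limit on mitochondrial UMIs, 3 values of at least 0.32 in size turned: the ratio of Igf1 at 24 h to 16 h (-0.035), the portal-to-central ratio of Igfbp2 at 24 h (0.29) and that of Irs1 at 0 h (0.067). The cause was not tested. No paired analysis was possible because each group has 1 library, and no replicate could be left out. Alternatives were added after the data were seen for the ratios between consecutive libraries, the end-bin changes, and the acute-phase split inside axis bins and at 3000 or more UMIs.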

Other observations

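Barcodes with less than 2% mitochondrial UMIs, which were outside the hepatocyte set, had lower CPM values of the 10 genes than the hepatocytes of the same library, apart from Ghr at 8 h. At 16 h, with 234 such barcodes, the interval of Igfals (58.4 CPM, 37.1 to 87.7, 23 UMIs) covered the 72.3 CPM of the hepatocytes, and that of Foxo1 (17.8 CPM, 7.15 to 36.7, 7 UMIs) covered their 34.3 CPM, so neither is given a direction there. Ghr stood at 523 CPM (487 to 560.3) in the 576 such barcodes at 8 h, against 406 CPM in the hepatocytes. Insr differed most, with 15.3 CPM in the 5400 such barcodes at 24 h against 161 CPM in the hepatocytes.

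Fkbp5, which encodes a co-chaperone known as a glucocorticoid target, was the gene most like Foxo1 over the 25 points of library and axis bin (Pearson's r = 0.98). It was chosen after its values were seen. Fkbp5 stood at 22.1 CPM in the fed library and at 134, 288, 37.7 and 122 CPM at 4, 8, 16 and 24 h. For Fkbp5 and Foxo1 alike, the 4, 8 and 24 h libraries lay above those of 0 h and 16 h.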
